A study of Mus musculus with 6 samples.

Results

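The genes examined were 10 that encode core contractile proteins of smooth muscle: Acta2, Actg2, Tagln, Cnn1, Cald1, Lmod1, Smtn, Myh11, Myl9 and Mylk. They were taken by gene name from a table of 54532 genes, and all 10 were present and passed the filter on low counts. The table holds RNA sequencing counts of mouse abdominal aorta, taken 7 days after an aneurysm (a widening of the artery wall) was induced. It compares 3 libraries from Olfr2 knockout (KO) mice with 3 from wild type (WT) mice, and both genotypes had the aneurysm induced. Olfr2 is a gene for an odorant-sensing G protein-coupled receptor. The sources used here do not give the way in which it was knocked out, the method of induction, or the strain, age and number of animals per library. The p-values therefore measure the spread between these libraries.

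Smooth muscle cells of the arterial media contract when actin thin filaments slide along myosin thick filaments. Calcium bound to calmodulin activates myosin light chain kinase, which phosphorylates the regulatory light chain and lets the myosin heads cycle on actin. These genes mark the contractile state of the cell, and their loss is a known feature of smooth muscle cells that change phenotype in injured or aneurysmal arteries. Most of them are controlled by serum response factor (SRF), which binds a DNA element called the CArG box, with its coactivator myocardin.

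Contractile transcripts had higher mean levels in the KO aortas, by amounts that ranged widely between genes. Of the 10 genes, 9 had a higher mean in KO and 1, Actg2, a lower one, and the median log2 fold change was 0.69, beside 0.0064 over all 16237 tested genes. The largest fold changes were those of Cnn1 (2.68-fold) and Myh11 (2.67-fold), and those of Cald1 (1.15-fold) and Actg2 (0.945-fold) were the smallest, as ratios of mean CPM (counts scaled to TMM-adjusted library size). With edgeR's quasi-likelihood test and Benjamini-Hochberg adjustment over all tested genes, 0 of the 10 passed an adjusted p of 0.05, where 0.0123% of all tested genes passed. At an unadjusted p under 0.05, 6 of the 10 were higher in KO (Acta2, Myh11, Cnn1, Myl9, Lmod1 and Smtn), where 5.23% of all tested genes were. DESeq2 called the same 6 genes after adjustment, where it called 1.03% of tested genes as higher in KO, and limma-voom called 0. The 3 KO libraries lay above the 3 WT libraries for 7 of the 10 genes and for 7.83% of all tested genes. In bulk tissue, more smooth muscle cells and more of these transcripts per cell cannot be told apart.

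**Figure D1:**
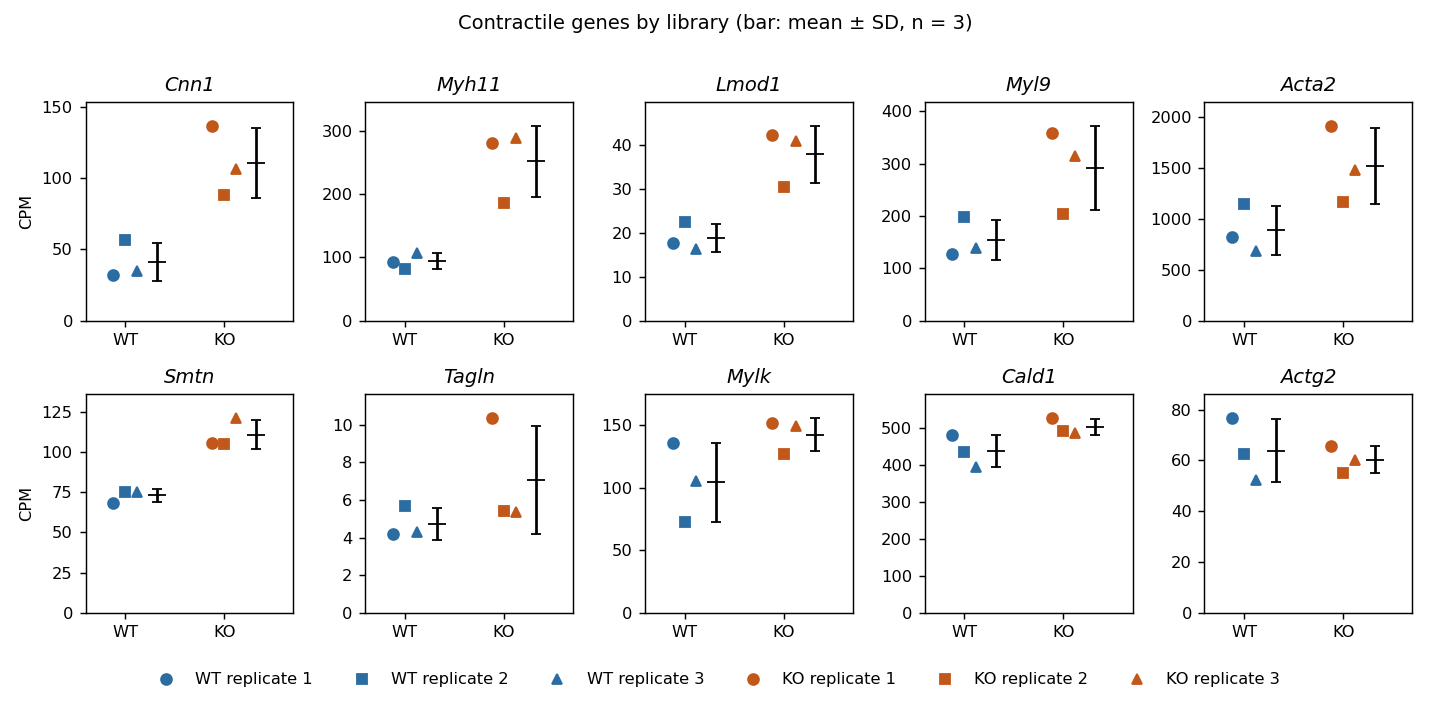
CPM of each of the 10 genes in the 3 WT (blue) and 3 KO (orange) libraries, with marker shape for the replicate and black bars for mean ± SD (n = 3 per genotype); each panel has its own axis from 0. The groups do not overlap for Cnn1, Myh11, Lmod1, Myl9, Acta2, Smtn and Cald1, and overlap for Tagln, Mylk and Actg2.

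The 250 bases before the start site were examined for the CArG box because these genes are textbook targets of SRF. RefSeq windows on GRCm38.p6 were at hand for 7 of the 10 genes, 8 windows in all since Cald1 has 2, and not for Myh11, Tagln and Actg2. The box is 10 bases long and reads as the same motif on both strands. An exact box was found for 1 gene, Myl9, and in 1.47% of 32851 windows of all genes. With at most 1 mismatch it was found for 4 genes, Acta2, Myl9, Lmod1 and Cald1, and in 18.6% of all windows. Acta2, Myl9 and Lmod1 are shown because each holds 2 such matches and because they encode the main actin, its myosin light chain partner and a filament nucleator. For Myl9 and Lmod1 the part of the window before the first GENCODE exon is given, and for Acta2, 30 bases around each match, since a GENCODE exon (34255290 to 34255590) reaches over both. The sequences, from RefSeq, are written 5′ to 3′ on the strand of the gene, and capitals mark the matches.
Acta2, upstream match (chr19:34255438-34255467, minus strand): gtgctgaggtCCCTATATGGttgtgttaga
Acta2, downstream match (chr19:34255388-34255417, minus strand): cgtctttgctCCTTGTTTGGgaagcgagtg
Myl9 (chr2:156775214-156775419, plus strand): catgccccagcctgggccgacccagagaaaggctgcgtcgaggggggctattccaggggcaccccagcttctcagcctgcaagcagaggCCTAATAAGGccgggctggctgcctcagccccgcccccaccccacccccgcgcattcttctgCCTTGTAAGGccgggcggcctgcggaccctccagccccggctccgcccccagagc
Lmod1 (chr1:135324563-135324806, plus strand): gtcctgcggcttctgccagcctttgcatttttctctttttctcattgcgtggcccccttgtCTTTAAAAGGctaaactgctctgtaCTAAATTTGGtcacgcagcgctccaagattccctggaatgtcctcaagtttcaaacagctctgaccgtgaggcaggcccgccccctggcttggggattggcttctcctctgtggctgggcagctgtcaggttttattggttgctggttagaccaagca
The matches of Acta2 began 84 and 34 bases before the RefSeq start site, those of Myl9 161 and 99 bases before it and those of Lmod1 189 and 164 bases before it. In Cald1 the match began 203 bases before the start site that lies further upstream. Cnn1, Mylk and Smtn held no match in their windows, which says only that these letters are not there. The genes with and without a match did not sort by fold change: Cnn1, with no match, had the highest log2 fold change of the 10, and Cald1, with a match, the lowest but 1.

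Among the thin filament genes, Acta2 encodes smooth muscle alpha-actin, the main actin of vascular smooth muscle (ENSMUSG00000035783, GRCm38 chromosome 19, 34241090 to 34255590, minus strand). It stood at 1912, 1165 and 1473 CPM in KO replicates 1 to 3 and at 823, 1148 and 684 CPM in WT replicates 1 to 3. All KO libraries were above all WT libraries, but KO replicate 2 exceeded WT replicate 2 by only 1165.1 against 1148.1 CPM. KO exceeded WT by 0.78 on the log2 scale (SE 0.24, adjusted p = 0.261), by 0.58 without KO replicate 1 and by 1.01 without WT replicate 2.

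Actg2 encodes smooth muscle gamma-actin, an isoform best known from the gut and other visceral organs (ENSMUSG00000059430, chromosome 6, 83512905 to 83536265, minus strand). It stood at 65.7, 55.1 and 60.1 CPM in KO and at 76.8, 62.4 and 52.2 CPM in WT. The groups overlapped throughout, and WT held both the highest and the lowest library. Its log2 difference was -0.082 (SE 0.15, adjusted p = 0.908), and 0.073 without WT replicate 1. The 50-base stretches of Acta2 transcripts were shared with other genes for 0.33% and those of Actg2 for 0.0%, so nearly all stretches of that length are unique to each actin.

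Cnn1 encodes calponin, which binds actin and restrains the myosin ATPase (ENSMUSG00000001349, chromosome 9, 22099216 to 22109630, plus strand). It stood at 136.8, 88.5 and 106 CPM in KO and at 32, 56.7 and 34.9 CPM in WT. Every KO library was well above the highest WT library. Its log2 difference of 1.42 (SE 0.24, adjusted p = 0.102) was the highest of the 10 genes and 159th of all tested genes. By unadjusted p it stood 26th of 16237.

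Tagln encodes transgelin, also called SM22-alpha, an actin-binding protein of smooth muscle (ENSMUSG00000032085, chromosome 9, 45929619 to 45936058, minus strand). Its counts were 181, 106 and 115 in KO and 77, 94 and 75 in WT, or 10.4, 5.42 and 5.36 CPM against 4.19, 5.7 and 4.32 CPM. Only KO replicate 1 was above all WT libraries. The log2 fold change of 0.57 (SE 0.30, adjusted p = 0.527) was 0.19 without KO replicate 1. Of its 1988 exon bases, 1349 (67.9%) lie under exons of genes on the plus strand, Gm48529 (1241 bases) and Pcsk7 (108 bases). Gm48529 itself held 53, 92 and 91 counts in KO and 57, 47 and 49 in WT. The part of this overlap in the low count of Tagln was not tested, and the sources used here do not give the strand setting or the treatment of reads over several genes.

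Cald1 encodes caldesmon, which blocks myosin binding on actin and exists as a heavy smooth muscle form and a light form made by most cells (ENSMUSG00000029761, chromosome 6, 34598500 to 34775473, plus strand). It stood at 528, 493 and 487 CPM in KO and at 481, 434 and 396 CPM in WT. The groups did not overlap, though KO replicate 3 lay at 486.7 and WT replicate 1 at 481.4 CPM. KO and WT differed by 0.20 on the log2 scale (SE 0.13, adjusted p = 0.608). Counts per gene do not separate the forms.

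Lmod1 encodes leiomodin, which starts new actin filaments in smooth muscle (ENSMUSG00000048096, chromosome 1, 135324807 to 135368065, plus strand). It stood at 42.3, 30.4 and 41 CPM in KO and at 17.8, 22.4 and 16.3 CPM in WT, with no overlap. Lmod1 differed by 1.01 on the log2 scale (SE 0.17, adjusted p = 0.102), 41st of all tested genes by unadjusted p. Smtn encodes smoothelin, an actin-associated protein of fully contractile smooth muscle (ENSMUSG00000020439, chromosome 11, 3517523 to 3540612, minus strand). It stood at 105.7, 105.2 and 121 CPM in KO and at 68.3, 75.2 and 75.3 CPM in WT. Smtn varied least between WT libraries, with a coefficient of variation of 5.47%, and its groups were well apart. The difference was 0.60 on the log2 scale (SE 0.11, adjusted p = 0.103), 53rd by unadjusted p. Of its exon bases 16.3% lie under Gm11946 on the opposite strand, which held 11 to 32 counts per library.

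Of the myosin genes, Myh11 encodes the smooth muscle myosin heavy chain, the motor of the thick filament and the most specific marker of this cell type (ENSMUSG00000018830, chromosome 16, 14194535 to 14291372, minus strand). It stood at 280.1, 186 and 288 CPM in KO and at 93.4, 82.1 and 107 CPM in WT. The lowest KO library was well above the highest WT library. Myh11 had a difference of 1.42 on the log2 scale (SE 0.18, adjusted p = 0.101), 5th of all tested genes by unadjusted p. Leaving out KO replicate 2 gave 1.60 with an adjusted p of 0.0275, and leaving out WT replicate 3 gave 1.52 with an adjusted p of 0.0211. Over the 6 fits that each leave out 1 library, its adjusted p ranged from 0.0211 to 0.273, and it was the only one of the 10 genes to pass in any of them. All genes called were 0.0181% of those tested without KO replicate 2 and 0.931% without WT replicate 3, against 0.0123% with all libraries.

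Myl9 encodes the regulatory light chain that the kinase phosphorylates (ENSMUSG00000067818, chromosome 2, 156775420 to 156781658, plus strand). It stood at 359, 203 and 315 CPM in KO and at 127, 198 and 139 CPM in WT. The groups did not overlap, and KO replicate 2 and WT replicate 2 were again the closest, at 203.4 and 198.1 CPM. The KO mean was 0.92 higher on the log2 scale (SE 0.23, adjusted p = 0.186). Mylk encodes myosin light chain kinase in long and short forms, the long one known from endothelium and other non-muscle cells (ENSMUSG00000022836, chromosome 16, 34745210 to 35002420, plus strand). It stood at 152, 127 and 149 CPM in KO and at 136, 72.6 and 105 CPM in WT. WT replicate 1 lay above KO replicate 2, so the groups overlapped. For Mylk the log2 fold change of 0.45 (SE 0.20, adjusted p = 0.458) became 0.24 without WT replicate 2 and 0.68 without WT replicate 1.

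**Figure D2:**
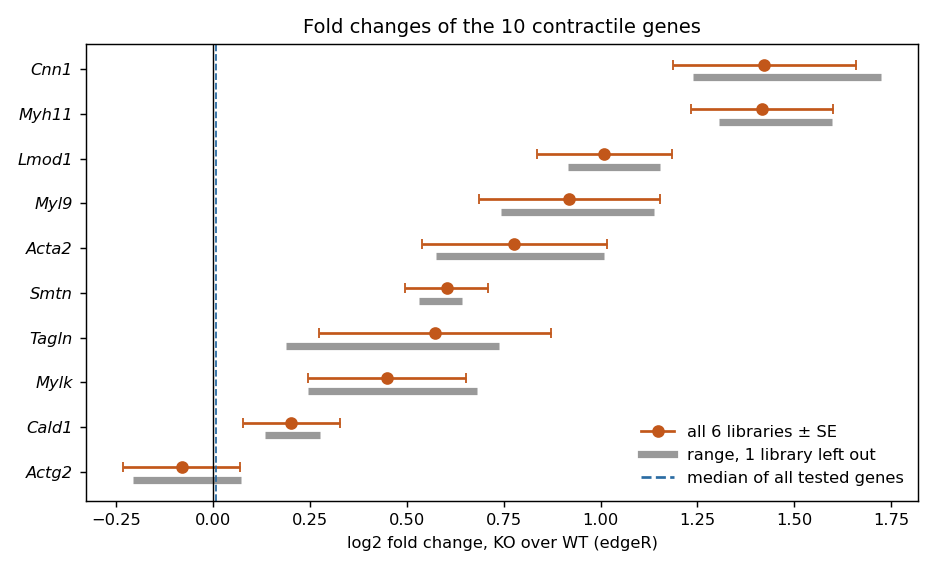
Log2 fold change of KO over WT for the 10 genes (orange points with SE, 6 libraries) and, in grey, the range over the 6 fits that each leave out 1 library; the dashed blue line is the median of all tested genes, 0.0064. Cnn1 and Myh11 lie at 1.42 and Actg2 at -0.082, whose grey range crosses 0.

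Summed over the 10 genes, contractile transcripts made up 0.363, 0.256 and 0.299% of all counts in KO and 0.19, 0.205 and 0.16% in WT. The groups did not overlap. Their summed level averaged 3032 ± 567 CPM over the KO and 1877 ± 272 CPM over the WT libraries (SD, n = 3). Acta2 alone gave 49.7 ± 3.13% of these counts in KO and 46.6 ± 5.79% in WT, so the sum mostly follows Acta2.

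Per length of exon, the order of the genes in WT was led by Acta2 at 403 ± 109 and Myl9 at 133 ± 32.8 CPM per kb (SD, n = 3). Actg2 (41 ± 7.94) and Cald1 (36.3 ± 3.57 CPM per kb) followed and overlapped. Over this length, Actg2 was above Cald1 in each of the 3 WT libraries and below it in each of the 3 KO libraries. Next came Smtn (16.7 ± 0.911), Cnn1 (15.1 ± 4.93) and Myh11 (12.4 ± 1.65 CPM per kb), whose neighbours in this order overlapped in WT. Mylk (9.28 ± 2.8 CPM per kb) overlapped Myh11 in WT, though Myh11 was the higher in all 6 libraries. Lmod1 (4.77 ± 0.812) and Tagln (2.38 ± 0.422 CPM per kb) closed the order without overlap.

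In KO the middle of the order was different. Cnn1 stood at 40.4 ± 8.95 and Myh11 at 33.1 ± 7.45 CPM per kb, beside Cald1 at 41.7 ± 1.85 and Actg2 at 38.7 ± 3.41 (SD, n = 3). Cnn1 ranked 6 in WT and 4 in KO, and Smtn 5 in WT and 7 in KO. Acta2 (691 ± 171) and Myl9 (252 ± 69 CPM per kb) led in both genotypes, and over this length Tagln (3.55 ± 1.45 CPM per kb) was last in both. The length used was the union of all exons, which is 12041 bases for Cald1 against 4777 for its longest transcript. Over all 6 libraries, Cald1 stood at 98.3 CPM per kb with the shorter length, and Actg2 at 46.6 with its longest transcript. The order of Cald1 and Actg2 therefore depended on the length used. Dividing all Tagln counts by the 639 exon bases that no other gene covers gave 11.04 ± 4.51 CPM per kb in KO. In WT it gave 7.41 ± 1.31 CPM per kb (SD, n = 3). Both means were above those of Lmod1, but this takes every Tagln count as coming from those bases. Over the longest transcript and all 6 libraries, Tagln (3.70) stayed below Lmod1 (7.19 CPM per kb).

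Ratios between genes within a library do not depend on how libraries are scaled, so they compare how far the 10 genes differ between genotypes relative to each other. There were 14 ratios of counts per length, each compared by an exact permutation test (two-sided), which for 3 against 3 cannot go below p = 0.1. Relative to Acta2, 2 of 9 genes had KO and WT libraries that did not overlap. The share among ratios of other genes was not taken. All 9 ratios share Acta2, whose KO libraries already lay above its WT libraries by CPM, so they are not separate support. The log2 ratio of Cnn1 to Acta2 was -4.12, -4.04 and -4.11 in KO and -5.00, -4.66 and -4.61 in WT, a difference of 0.67 (exact p = 0.1, adjusted p = 0.2). The 3 KO values of Cnn1 lay within a narrow band above all WT values. The log2 ratio of Actg2 to Acta2 was -4.37, -3.91 and -4.12 in KO and -2.93, -3.71 and -3.21 in WT, a difference of -0.85 (exact p = 0.1, adjusted p = 0.2). The ratio of Myh11 to Acta2 differed by 0.62 and that of Cald1 to Acta2 by -0.58 (exact p = 0.2 for each, adjusted p = 0.28), with overlapping groups. Without WT replicate 2 the difference for Myh11 was 0.32, and without WT replicate 3 it was 0.88. Lmod1 (0.23), Myl9 (0.12), Smtn (-0.18), Tagln (-0.26) and Mylk (-0.29) had exact p-values of 0.2 to 0.6. That of Mylk ran from -0.73 without WT replicate 2 to -0.044 without WT replicate 1.

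Many contractile proteins have a counterpart that most cells make, and 5 such pairs were compared. In all 5 the KO libraries lay above the WT libraries (exact p = 0.1 for each, adjusted p = 0.2). By CPM alone the KO libraries already lay above the WT libraries for each of these smooth muscle genes except Tagln. The 5 ratios are therefore not separate support, and the share among ratios of other genes was not taken. The log2 ratio of Cnn1 to Cnn2, calponin 2, was -1.22, -1.76 and -1.52 in KO and -3.41, -2.77 and -3.31 in WT, a difference of 1.66. For Myh11 against Myh9, a non-muscle myosin heavy chain, the ratio was -0.53, -1.45 and -0.71 in KO and -2.64, -2.56 and -2.32 in WT, a difference of 1.61. For both pairs, the smooth muscle form was closer in level to the non-muscle form in each KO library than in any WT library. The ratio of Myl9 to Myl12a differed by 0.96, that of Acta2 to beta-actin Actb by 0.95 and that of Tagln to Tagln2 by 0.75, or by 0.44 without KO replicate 1. On their own, the counterparts Cnn2, Myh9, Actb, Tagln2 and Myl12a had log2 fold changes of -0.22, -0.21, -0.23, -0.24 and -0.055, and none of these 5 had an unadjusted p under 0.05. Myl9 was the more abundant of its pair per length in all 6 libraries, with log2 ratios of 0.99 to 2.25, and the other 4 smooth muscle forms were the less abundant.

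**Figure D3:**
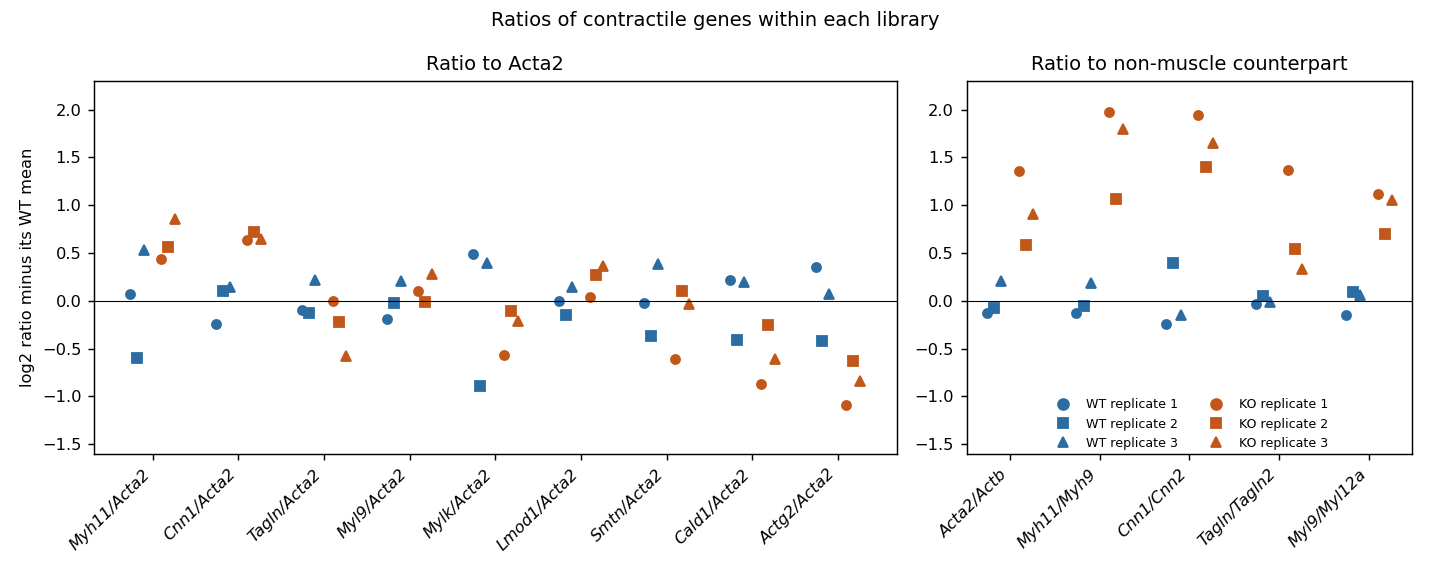
Log2 ratio of counts per length within each library, minus the mean of that ratio in WT, for 9 genes against Acta2 (left) and 5 genes against their non-muscle counterpart (right); blue is WT, orange is KO and shape is the replicate. All KO points are above all WT points in the 5 pairs on the right, where on the left only Cnn1 and Actg2 separate.

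Library differences within a genotype were shared by some of the genes. After taking out each genotype's mean, the log2 CPM of Lmod1, Acta2 and Myl9 correlated with the mean of the other 9 genes at r = 0.89, 0.89 and 0.86, and that of Smtn and Mylk at 0.068 and -0.19 (n = 6 libraries). Over all pairs the median r was 0.32, and 35 of 45 pairs were above 0. These points share library composition and are given as a description. KO replicate 1 was the highest of all libraries for Acta2, Cnn1, Lmod1, Myl9, Mylk, Cald1 and Tagln, while KO replicate 3 was the highest for Myh11 and Smtn. WT replicate 2 was the highest WT library for Acta2, Cnn1, Lmod1, Myl9 and Tagln and the lowest for Myh11 and Mylk.

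The genes most like the contractile set were ranked by the Pearson r of their log2 CPM with the mean of the 10 over the 6 libraries, among 10349 genes with a mean of at least 10 CPM. The first 6 were Cped1 (r = 0.996), Tiprl (0.995), Ltbp1 (0.992), the elastin gene Eln (0.988), Klhl13 (0.987) and Fgfr2 (0.986). With genotype means taken out, their r was 0.92 to 0.99. It came from the same 6 libraries that ranked these genes, so it is not separate support. A high r does not need a large change: Tiprl averaged 44.5 ± 1.04 CPM over the KO and 40.4 ± 0.581 CPM over the WT libraries, and Eln 3553 ± 1296 and 1543 ± 259 CPM (SD, n = 3).

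Other genes of the contractile apparatus were read from lists of related function. None of the genes in these lists passed over all genes tested in edgeR. Counts at an unadjusted p under 0.05 are read beside the 5.23% of all tested genes higher in KO and the 6.08% lower. These shares are of the fit to all libraries and were not taken for fits that leave out a library. Among 22 filament and dense body partners, 7 were higher in KO at an unadjusted p under 0.05 and 0 lower, with a median log2 fold change of 0.22. The log2 differences were 1.52 (SE 0.30) for Ldb3, a Z-disc protein, 0.79 (SE 0.16) for synaptopodin 2 (Synpo2), 0.96 (SE 0.20) for the intermediate filament gene Synm and 1.45 (SE 0.40) for the LIM domain gene Pdlim3. Without KO replicate 3, the library with a high level of skeletal muscle markers, the count was 5 and the log2 fold change of Ldb3 was 1.16 (SE 0.26). The count was also 5 without WT replicate 1, and 6 to 7 without each other library. Desmin, Des, stood at 69.1, 66.8 and 91 CPM in KO and at 50.7, 60.4 and 57.7 CPM in WT, without overlap.

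Calcium entry and release set the activity of the light chain kinase. Of 17 calcium handling genes, 4 were higher and 2 lower at an unadjusted p under 0.05, with a median log2 fold change of 0.10. Kcnmb1, the smooth muscle subunit of the large-conductance potassium channel, was at 1.27 (log2 fold change, SE 0.24) and the calcium release channel gene Ryr2 at 1.79 (SE 0.41). The calcium channel genes Cacnb3 (-0.38, SE 0.14) and Orai1 (-0.36, SE 0.13) had lower means in KO. Without KO replicate 1 there were 2 higher and 1 lower, and without KO replicate 3 there were 3 higher and 0 lower.

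The regulators of these genes were read in the same way. Of 22 tested genes for SRF and myocardin control, 3 were higher and 1 lower at an unadjusted p under 0.05, with a median of 0.017. Myocd, which encodes myocardin, stood at 5.11, 5.58 and 7.37 CPM in KO and at 2.77, 1.09 and 2.48 CPM in WT, which is a difference of 1.503 on the log2 scale (SE 0.35, adjusted p = 0.148). Every KO library of Myocd was above every WT library. Srf averaged 55.3 ± 5.25 CPM over the KO libraries and 54.6 ± 5.87 CPM over the WT libraries (SD, n = 3), with a log2 difference of 0.017 (SE 0.12). The LIM protein genes Fhl1 (1.08, SE 0.22) and Csrp2 (0.77, SE 0.22) were the other 2 with a higher mean at that level. The SRF coactivator gene Mkl1 (-0.40, SE 0.18) was the lower one. Mkl1 overlapped, at 49.1, 58.9 and 72.2 CPM in KO and 68.1, 73.1 and 97.4 CPM in WT. Leaving out 1 library at a time gave 3 to 4 higher genes in this list. Lower ones were 1 without KO replicate 3, 2 without WT replicate 1 and 0 in each other fit.

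The list of paralogues held non-muscle and other relatives of the 10 genes, and 13 of its 17 were tested. At an unadjusted p under 0.05, 3 were higher and 1 lower, with a median of -0.055. The higher ones were the kinase genes Mylk4 (2.81, SE 0.49) and Mylk2 (1.85, SE 0.58) and the non-muscle myosin gene Myh10 (0.43, SE 0.15), and the lower one was the cytoplasmic actin gene Actg1 (-0.32, SE 0.14). Leaving out 1 library at a time left 2 to 3 higher, and 0 lower except 1 without KO replicate 1. Mylk2 is known from skeletal muscle. It stood at 2.75, 1.69 and 5.27 CPM in KO and at 0.33, 1.58 and 0.81 CPM in WT. Without KO replicate 3 the log2 fold change of Mylk2 was 1.30 (SE 0.59, unadjusted p = 0.058 in edgeR). That of Mylk4 was then 2.38 (SE 0.47). Mylk4 stood at 23.6, 11.4 and 35 CPM in KO and at 2.34, 5.76 and 1.96 CPM in WT.

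**Figure D4:**
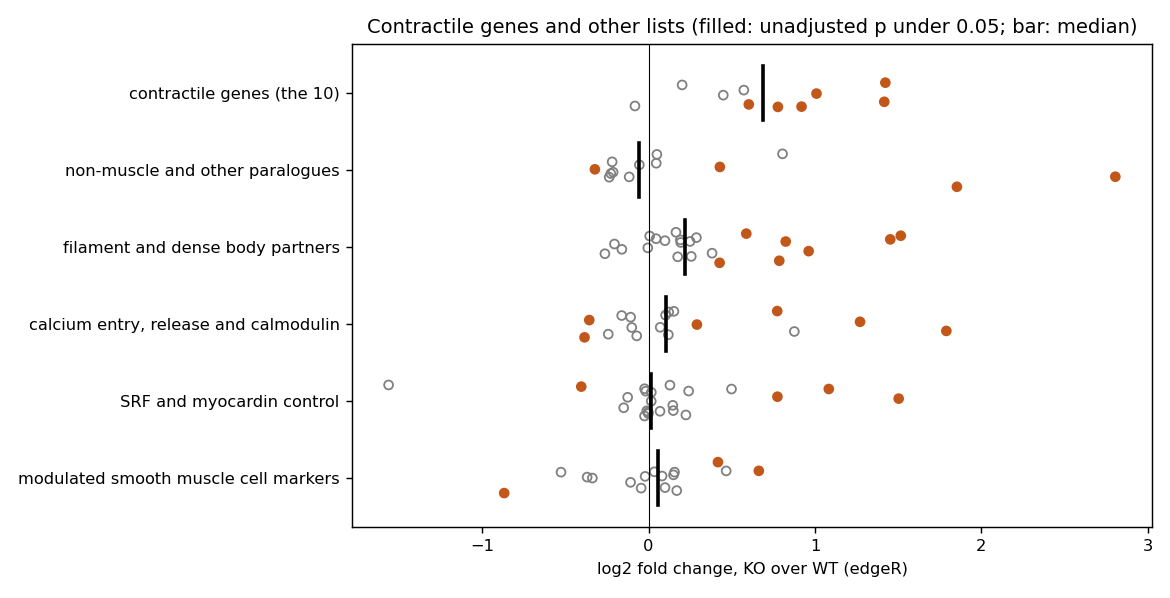
Log2 fold change of KO over WT for each tested gene of the contractile set and of 5 lists of related genes; filled orange points have an unadjusted p under 0.05 (edgeR), open grey points do not, and black bars are medians. The median is 0.69 for the 10 contractile genes and between -0.055 and 0.22 for the other lists.

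The library totals were 17248918 to 21872027 counts, and no pair of libraries agreed within sampling noise. Of 12 smooth muscle cell markers, 5 of which are among the 10 genes, all 12 had counts in the tissue. Their summed level was 2417 to 3692 CPM in KO and 1488 to 1981 CPM in WT. Acta2 was the largest part of this sum in every library, so the sum partly repeats the 10 genes. By gene, 11 of the 12 had a higher mean in KO, all except Notch3 (log2 fold change -0.36, SE 0.18). Skeletal muscle markers, 13 of 13 with any count, summed to 10.9, 11.3 and 1239 CPM in KO and 10.3 to 23.4 CPM in WT. KO replicate 3 was thus the only library with a high level of them, with the skeletal actin Acta1 at 4133 counts there and 2 to 33 in the others. Without that library the median log2 fold change of the 10 contractile genes was 0.77, beside 0.0070 over all genes tested in that fit. There 7 of the 10 had an unadjusted p under 0.05 (edgeR), and the share of all tested genes at that level was not taken. White adipocyte markers, 12 of 12 detected, summed to 1876 to 2815 CPM in KO, 1725 CPM in WT replicate 3 and 447 to 469 CPM in the other WT libraries.

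Marker lists of other cell types and of the mitochondrial genome were summed in the same way. Mitochondrially encoded transcripts took 5.32, 2.59 and 2.32% of KO counts and 1.84, 1.88 and 1.56% of WT counts, without overlap. Brown adipocyte markers, 8 of 8 detected, summed to 23 to 85.2 CPM in KO and 6.55 to 20 CPM in WT. T cell markers, 10 of 10 detected, summed to 196 to 239 CPM in KO and 313 to 393 CPM in WT. Cardiac markers, 9 of 10 detected with Sln at 0, summed to 8.32 to 20.2 CPM in KO and 7.03 to 9.78 CPM in WT. Mesothelial markers, 7 of 7 detected, summed to 5.57 to 10.4 CPM in KO and 7.17 to 19.5 CPM in WT. Fibroblast markers summed to 19305 to 25743 CPM in KO and 24153 to 32293 CPM in WT, and overlapped. Macrophage markers, 10 of 10 detected, summed to 8362 to 11264 CPM in KO and 7296 to 9662 CPM in WT, and overlapped. Within that list, Lyz2 held 523 counts in WT replicate 2 and 71223 to 126527 counts in each other library. Every other macrophage marker was at its highest WT level in WT replicate 2. The cause of the low Lyz2 count was not tested. The part of these lists in the contractile difference was not tested.

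**Figure D5:**
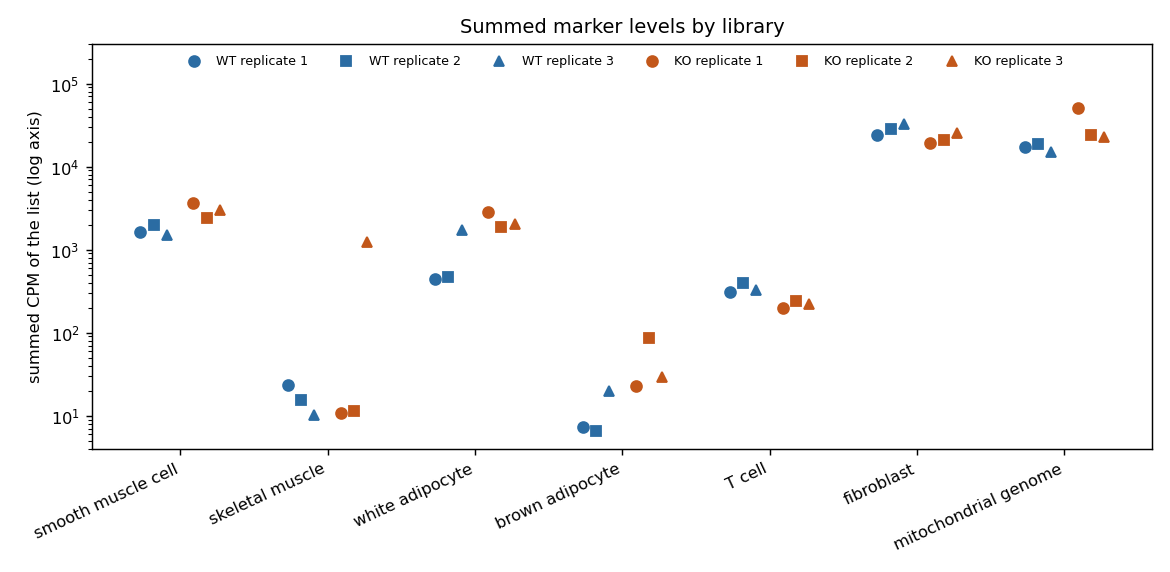
Summed CPM of marker lists in each library on a log axis, blue for WT and orange for KO, with shape for the replicate. Skeletal muscle markers are high in KO replicate 3 alone, at 1239 CPM, and white adipocyte markers in WT replicate 3 lie near the KO libraries, at 1725 CPM.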

How the data were processed

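The members and lists were chosen with earlier results of these data known. Per the labels' protocols, RNA of mouse abdominal aorta was bound to poly-T beads and primed with random hexamers. The authors deposited raw read counts per gene for 3 KO and 3 WT libraries. The submitters' processing notes name HISAT2 2.0.5, featureCounts 1.5.0-p3 and GRCm38. The sources used here do not give the strand setting, the handling of reads over several genes or the annotation used. Genes on opposite strands may therefore share reads. Library totals were 17248918 to 21872027 counts.

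Positions, exon lengths, exon overlap and shared 50-base stretches came from GENCODE mouse release 21 on GRCm38. Counts were fitted in R 4.3.3 with edgeR 4.0.16 (filterByExpr with the genotype, TMM, quasi-likelihood test, no covariate), and p-values were adjusted by Benjamini-Hochberg over all 16237 tested genes. The SE is the log2 fold change divided by the square root of F. Log2 CPM for correlations used a prior count of 2. DESeq2 1.42.0, limma-voom (limma 3.58.1), other scalings and filters, a replicate block and leaving out each library were the alternatives. The longest transcript, the unshared bases of Tagln, and list counts without each library and the pericyte sum without Rgs5 were added after seeing the data. Named beside the 10 genes were up to 4 genes of each list by smallest p, both genes of each ratio, markers of lists that differed over 1.5 times, and the 6 most alike genes. Not all of them are reported, and 1 list of related genes is not reported here. Des, Srf, Klf4, Rgs5, Cspg4, Pdgfrb, Notch3, Lyz2, Gm48529, Gm11946 and Pcsk7 were chosen after their values were seen. Figures were drawn with matplotlib 3.10.9.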

Additional observations from a re-analysis of the deposited data

How the results depend on the processing

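No contractile gene passed in edgeR under the other scalings (DESeq2 size factors, upper quartile, library size alone), the stricter filter, without mitochondrial genes, or in limma-voom, and the median log2 fold change stayed at 0.69 to 0.73 there. DESeq2 called 451 genes (2.78% of those tested), 6 of them contractile. Without a filter on low counts, edgeR called 644 of 29498 genes (2.18%), also with 6 contractile ones. limma-voom called 0 genes, against 2 in the edgeR fit; the cause of these differences was not tested. Leaving out 1 library at a time gave 0 to 155 calls over all genes. The highest, 0.931% of those tested, was without WT replicate 3. Contractile calls were 0 to 1, in each case Myh11. The median log2 fold change of the 10 genes ranged from 0.60 without KO replicate 1 to 0.87 without WT replicate 2. The log2 fold change of Actg2 ranged from -0.21 without WT replicate 3 to 0.073 without WT replicate 1, a change of sign. The log2 ratio of Smtn to Acta2 (difference -0.18) ranged from -0.36 without WT replicate 2 to 0.032 without KO replicate 1, and it was 0.012 without WT replicate 3.

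The labels give both genotypes the numbers 1 to 3, but same-numbered libraries did not deviate together (r = -0.10, -0.062 and -0.12), and no KO library correlated best with its own number. With the replicate block, edgeR called 0 genes and 0 contractile genes, and the median log2 fold change of the 10 was 0.69. For the ratios an exact sign-flip permutation test over such pairs cannot go below p = 0.25.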

Other observations

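Genes linked to modulated smooth muscle cells, which have lost contractile proteins, were also measured. Of 16 such markers, 2 were higher and 1 lower in KO at an unadjusted p under 0.05 (edgeR), 0 passed over all genes tested, and the median log2 fold change was 0.058. The matrix protein genes Mgp (0.66, SE 0.23) and Spp1 (0.42, SE 0.18) had higher means in KO, and Ly6a, a surface marker shared with other stromal and blood cells, had a lower one (-0.87, SE 0.22). Leaving out 1 library at a time changed this balance: 0 were higher and 2 lower without WT replicate 1 and again without WT replicate 3, and 3 were higher and 1 lower without WT replicate 2. Without KO replicate 2, 1 was higher and 2 lower, and without KO replicate 1 or KO replicate 3, 1 was higher and 1 lower. Klf4, a factor known to repress contractile genes, averaged 36.5 ± 7.9 CPM over the KO libraries and 32.9 ± 9.69 CPM over the WT libraries (SD, n = 3).

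Endothelial markers, 10 of 10 detected, summed to 743 to 927 CPM in KO and 679 to 966 CPM in WT, and pericyte markers, 8 of 8 detected, to 1178 to 1432 CPM in KO and 962 to 1004 CPM in WT. The pericyte sums were separated by Rgs5, at 909, 622 and 690 CPM in KO and 447, 419 and 390 CPM in WT, which is also on the smooth muscle list. The other 7 pericyte markers summed to 524 to 573 CPM in KO and 543 to 600 CPM in WT and overlapped. By gene, 6 of the 8 pericyte markers had a higher mean in KO, among them Rgs5 and Cspg4 (log2 fold change 0.55, SE 0.15). Pdgfrb (-0.27, SE 0.11) and Notch3 (-0.36, SE 0.18) were those with lower means in KO. Visceral smooth muscle markers, 7 of 8 detected with Hoxd13 at 0 and Actg2 among them, summed to 61.3 to 72.5 CPM in KO and 59.2 to 80.7 CPM in WT.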
